A study of Mus musculus with 4 samples.

Results

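Carriers of amino acids and of the transmitters made from them were followed in the epididymal white adipose tissue of mice, the fat pad attached to the epididymis. The genes were taken by symbol, as every protein-coding gene of the families Slc1a, Slc3a, Slc6a, Slc7a and Slc38a except Slc38a4, which gave 55 of the 39179 genes measured. Slc7a6os came with the symbol rule, but it is named for its place near Slc7a6 on the opposite strand and encodes no carrier. Polyadenylated RNA was sequenced from 2 libraries labelled Nck2 mutant (KO) and 2 labelled wild type (WT), all from mice of a mixed genetic background. Nck2 encodes an adaptor that links activated receptor tyrosine kinases to the actin cytoskeleton. The design compares the pad between Nck2-/- and Nck2+/+ mice, and ages, diet and the part of the gene altered are not stated in the labels, nor whether replicates were separate animals. The p-values therefore measure the spread between these libraries, which may be technical.

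Amino acids cross the plasma membrane on carriers that differ in substrate and in what they exchange or cotransport. The Slc1 family moves glutamate, aspartate or small neutral amino acids, the Slc6 family couples transmitters, creatine, taurine or amino acids to sodium and chloride, and the Slc38 family moves glutamine and other small neutral amino acids. Most Slc7 light chains reach the membrane only when bound to a heavy chain, Slc3a2 or Slc3a1. In fat, amino acids feed protein synthesis, the breakdown of branched-chain amino acids and the signalling of mTORC1.

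The libraries held 37980391 and 33880872 reads in KO and 31831904 and 34056187 in WT. Levels are normalized counts, in which each library's reads were scaled by its size factor. The log2 fold change sets KO over WT after 1 was added to each normalized count, which understates the change of low genes, and its standard error is given as SE. The limma test covered the 16710 genes whose mean over the 4 libraries reached 10, with Benjamini-Hochberg adjustment across them, and a gene is said to rise or fall where its adjusted p was under 0.05. Nck2 itself was at 1076 and 947 in KO and at 1279 and 1667 in WT, with a log2 fold change of -0.53 (SE 0.16, adjusted p = 0.0509). The groups did not overlap, but the difference did not pass. Because the altered part of Nck2 is not stated, this total over the whole gene cannot check the genotype.

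Markers of several tissues differed between the groups. The 16 epididymis and male tract markers summed to 469 and 339 normalized counts in KO and to 1106200 and 1407960 in WT, and 6 of them (Pax2, Pate4, Lcn5, Ovch2, Lcn8 and Lcn9) were at 0 in both KO libraries. Of the 11 tested, 10 fell and 0 rose (median log2 fold change -11.12, the same when the 3 genes without KO reads were set to 3 reads in the KO group). The 10 smooth muscle markers summed to 30893 and 37401 in KO and to 540291 and 713899 in WT, and 9 of them fell. The 8 epithelial markers summed to 3800 and 661 in KO and to 28092 and 34613 in WT, and 8 fell. The 12 mature adipocyte markers summed to 1688900 and 2004600 in KO and to 632380 and 426459 in WT, and 11 rose (median log2 fold change 1.75). Macrophage and endothelial markers rose in 6 of 6 and 5 of 6 tested. The part of these tissues in the differences of the carriers, and of the other genes described below, was not tested. In bulk RNA, fewer cells of a type and less RNA per cell cannot be told apart.

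**Figure D1:**
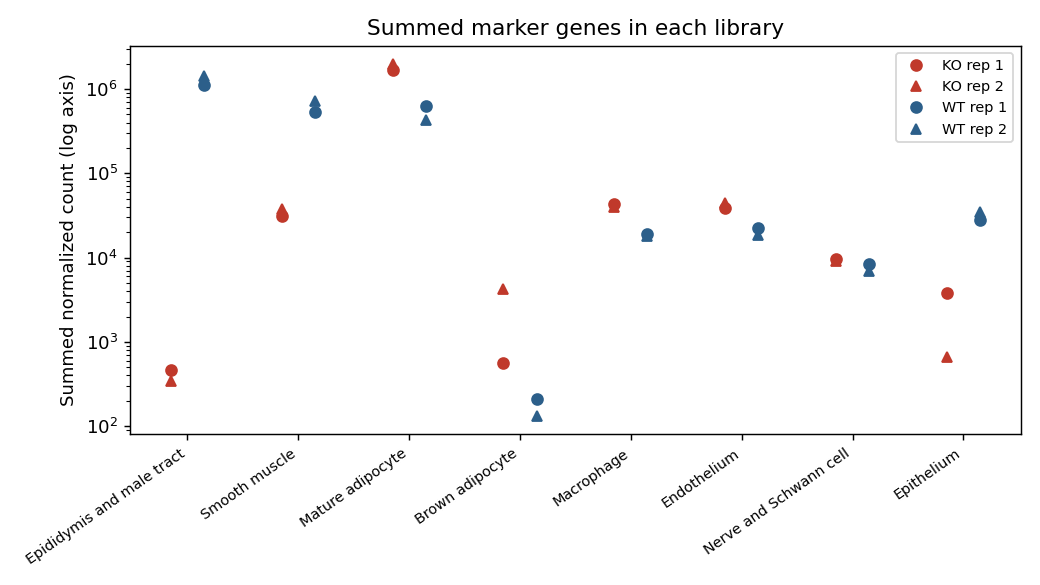
Summed normalized counts of 8 lists of cell type markers (log axis), with KO libraries in red to the left of WT libraries in blue and one point per library. Male tract, smooth muscle and epithelial sums were lower in both KO libraries than in both WT libraries, and mature adipocyte sums were higher (1688900 and 2004600 in KO, 632380 and 426459 in WT).

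Of the 55 genes, 40 passed the filter on low values and 15 did not. Among the 40, 7 rose (Slc1a5, Slc38a10, Slc7a10, Slc7a8, Slc6a13, Slc38a3 and Slc7a13), 16 fell and 17 did not pass. That is 17.5% higher and 40% lower, where 22.4% of all tested genes were called higher and 24.4% lower. The median log2 fold change was -0.38 for the 40 genes, -0.53 for the 39 without Slc7a6os and -0.01 for all tested genes. The 55 genes together took 0.396% and 0.434% of the reads in KO and 0.291% and 0.232% in WT. Of this, Slc1a5 with its relative Slc1a4 took 0.2333% and 0.27% in KO and 0.1298% and 0.07198% in WT. The Slc3 and Slc38 families each took smaller shares in both KO libraries than in both WT libraries. Both KO libraries lay above both WT libraries for 14 of the 40 genes and below them for 21, against 38.9% and 40.6% of all tested genes. The other 5, Slc7a6os among them, overlapped. Without WT replicate 1 the numbers called were 3 higher and 9 lower, and without WT replicate 2 they were 1 and 6, in fits with fewer degrees of freedom. Of the 23 calls, 7 were kept in each of the 13 alternative settings, namely Slc7a10 upward and Slc7a1, Slc7a4, Slc7a11, Slc6a8, Slc6a9 and Slc6a17 downward. The authors' deposited table called 8 higher and 19 lower at an adjusted p under 0.05, where 18.8% and 21.7% of its genes with an adjusted p were called. These include all 23 of the calls above, and beside them Slc1a3 upward and Slc7a15, Slc7a12 and Slc6a16 downward.

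**Figure D2:**
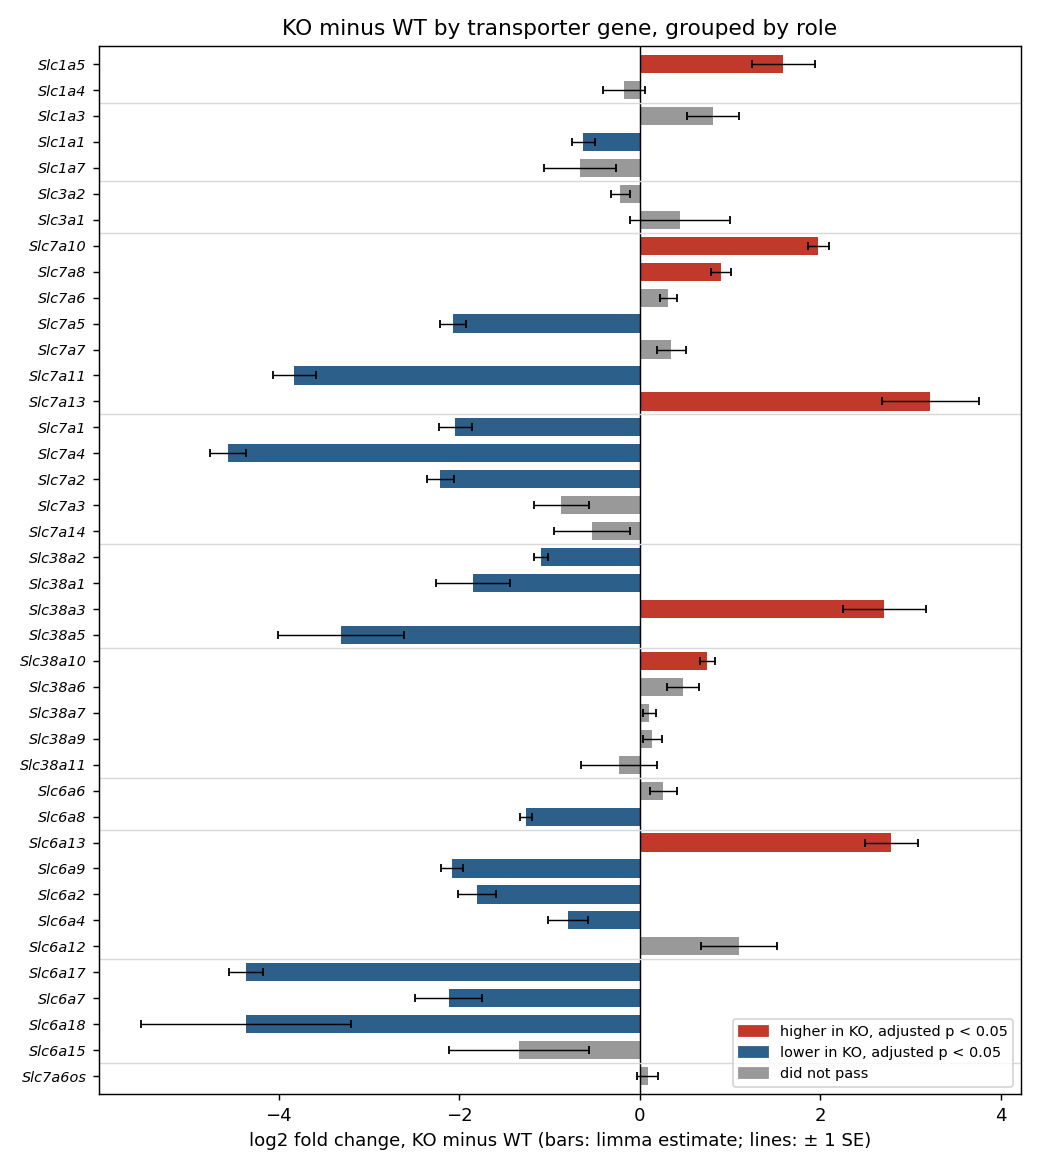
Log2 fold change, KO minus WT, of the 40 tested genes in order of their role, with lines of ± 1 SE from limma. Red bars rose and blue bars fell at an adjusted p under 0.05, and grey bars did not pass. The range ran from -4.56 for Slc7a4 to 3.21 for Slc7a13.

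The neutral exchanger Slc1a5, which takes up glutamine in exchange for other small neutral amino acids, was the most abundant of these transcripts. It stood at 82606 and 101451 normalized counts in KO and at 41498 and 22276 in WT. Its means were 92028 ± 13325 in KO and 31887 ± 13592 in WT (SD, n = 2 each), at chr7:16781340-16798274 on the plus strand (GRCm38). Both KO libraries were above both WT libraries, although in ratio the WT libraries lay nearly as far from each other as the lower KO library lay from the higher WT library. KO exceeded WT by 1.59 on the log2 scale (SE 0.35, adjusted p = 0.0233). The call was lost in each fit without 1 library, where the log2 fold change ran from 1.14 to 2.04 and the adjusted p from 0.0551 to 0.12. Per kb of exon, Slc1a5 made up 59.9% and 62.6% of the level of all 55 genes in KO and 50.9% and 36.5% in WT. In the same WT libraries the adipocyte markers summed to 632380 and 426459, and their part in the Slc1a5 levels was not tested. Its relative Slc1a4, a carrier of alanine, serine and cysteine, had 405 and 618 in KO and 599 and 532 in WT, with overlapping groups (log2 fold change -0.17, adjusted p = 0.563, and 0.13 without KO replicate 1).

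Carriers of glutamate and aspartate were led by Slc1a3, the glutamate carrier of astrocytes in the brain. It had 10856 and 9530 normalized counts in KO and 7706 and 4383 in WT, with a log2 fold change of 0.81 (SE 0.29, adjusted p = 0.0832), so it did not pass although the groups did not overlap. It passed in DESeq2 on the recovered reads (adjusted p = 0.0202) and without WT replicate 1 (log2 fold change 1.21, adjusted p = 0.0457). Slc1a1, the glutamate carrier of neurons and epithelia, fell to 597 and 519 in KO, against 791 and 934 in WT (log2 fold change -0.63, SE 0.13, adjusted p = 0.0201). The call was lost with KO replicate 2 left out (-0.53, adjusted p = 0.0721), with WT replicate 1 left out (-0.75, adjusted p = 0.0801) and with WT replicate 2 left out (-0.51, adjusted p = 0.144). Of its exon length 31.9% is shared with 4430402I18Rik on the opposite strand, and the strand setting of the counting is unknown. Slc1a7, the glutamate carrier of the retina, was at 12.2 and 7.8 in KO and at 17.3 and 14.9 in WT, and did not pass (adjusted p = 0.236).

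**Figure D3:**
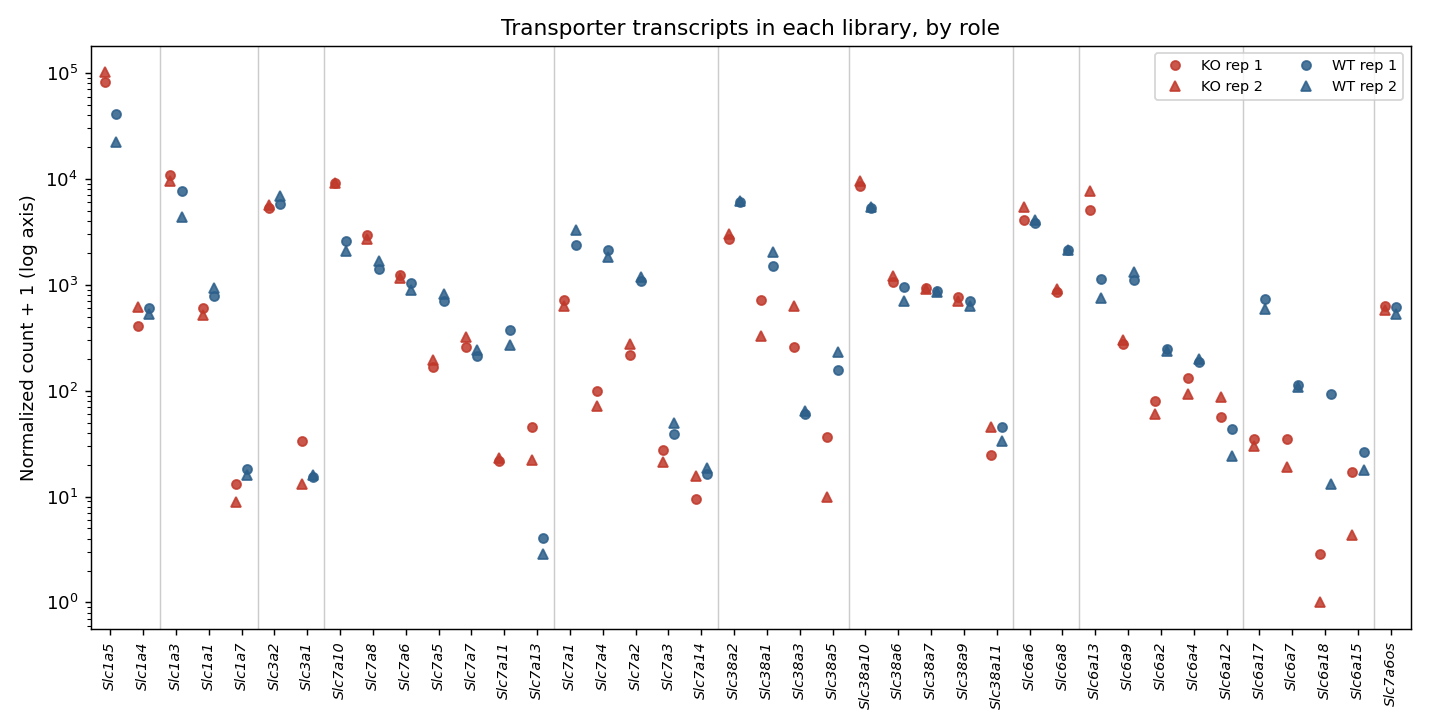
Normalized count + 1 (log axis) of the 40 tested genes in every library, with KO libraries in red to the left of WT libraries in blue, grouped by role. Slc1a5 stands above the rest in all 4 libraries, and Slc6a17, Slc7a4 and Slc7a11 show wide gaps between the groups.

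The heavy chain Slc3a2, which carries Slc7 light chains to the surface, had 5261 and 5615 normalized counts in KO and 5802 and 6871 in WT. The groups did not overlap, but the log2 fold change of -0.22 (SE 0.11) did not pass (adjusted p = 0.166). The other heavy chain, Slc3a1, the partner of cystine carriers in the kidney, had 32.8 and 12.3 in KO and 14.3 and 14.9 in WT (log2 fold change 0.44, SE 0.55, adjusted p = 0.542, and -0.23 without KO replicate 1). Its exons share 26.5% of their length with Prepl on the opposite strand, which had 1389 and 1342 in KO and 1765 and 1956 in WT. Slc3a2 held 99% and 99.7% of the heavy chain level per kb in KO and 99.6% and 99.7% in WT.

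Among the light chains, 3 rose, 2 fell and 2 did not pass of 7 tested, where 22.4% of all tested genes rose and 24.4% fell. Slc7a10, an exchanger of small neutral amino acids such as serine, glycine and alanine and a surface protein of white adipocytes, had 9068 and 9228 normalized counts in KO and 2580 and 2101 in WT. Its means were 9148 ± 113 in KO and 2340.3 ± 339 in WT (SD, n = 2 each), at chr7:35186385-35201114 on the plus strand. The KO libraries were close together and far above both WT libraries, with a log2 fold change of 1.97 (SE 0.12, adjusted p = 0.00112), a 3.93-fold difference, beside the adipocyte marker median of 1.75. Of its exon length 17.9% is shared with Lrp3 on the opposite strand, whose own counts were lower in KO (402 and 391) than in WT (721 and 619).

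Slc7a8 and Slc7a5, 2 exchangers of large neutral amino acids including leucine, went in opposite directions. Slc7a8 rose to 2964 and 2714 in KO, against 1399 and 1663 in WT (log2 fold change 0.89, SE 0.11, adjusted p = 0.00527). Slc7a5 fell to 165 and 194 in KO, against 695 and 819 in WT (log2 fold change -2.07, SE 0.15, adjusted p = 0.00161). Per kb of exon, Slc7a8 exceeded Slc7a5 by 13.3 and 10.4 times in the KO libraries and by 1.49 and 1.5 times in the WT libraries. The Slc7a8 call was lost when WT replicate 1 was left out (0.77, adjusted p = 0.0501) or WT replicate 2 (1.02, adjusted p = 0.05001), and the Slc7a5 call when WT replicate 2 was (-1.95, adjusted p = 0.0544). The exchangers of cationic for neutral amino acids did not pass. Slc7a6 had 1235 and 1170.5 in KO and 1033 and 902 in WT (adjusted p = 0.0549), and Slc7a7 had 259.5 and 321 in KO and 214 and 240.0 in WT (adjusted p = 0.148). Slc7a6os, which is no carrier, lies 2 kb from Slc7a6 on the opposite strand. Its levels overlapped between the groups, with 636 and 581 in KO and 615 and 534 in WT (adjusted p = 0.568).

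Slc7a11, the light chain that imports cystine in exchange for glutamate and so supplies glutathione synthesis, had 20.6 and 22.3 normalized counts in KO and 371 and 271 in WT. Both KO libraries lay far below both WT libraries, with a log2 fold change of -3.82 (SE 0.24, adjusted p = 0.00125). Slc7a13, which carries cystine and aspartate in the kidney, had 44 and 21.2 in KO and 3.1 and 1.9 in WT (log2 fold change 3.21, SE 0.54, adjusted p = 0.0114). The Slc7a13 call was lost with KO replicate 1 left out (2.70, adjusted p = 0.0545), and likewise WT replicate 1 (3.47, adjusted p = 0.0729) or WT replicate 2 (2.96, adjusted p = 0.101).

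Slc7a11 is a textbook target of the transcription factor ATF4, which is made when amino acids are scarce and binds sites that combine a C/EBP with an ATF sequence. Promoter windows from RefSeq (GRCm38.p6), from 250 bases before to 50 after a start site, were available for 39 of the genes in 57 windows. The letters TGATGNAA, with N any base and on either strand, were found in 4 of these windows, belonging to 3 genes, and in 3.97% of all 32851 windows in the table. Of the 3 genes Slc7a11 fell and Slc1a4 and Slc7a7 did not pass. One window of each is shown in the direction of the gene with the matches in capitals, because Slc7a11 holds a facing pair of them and the others do not. The windows are chr3:50443564-50443863, chr11:20332664-20332963 and chr14:54417895-54418194, all on the minus strand.
Slc7a11: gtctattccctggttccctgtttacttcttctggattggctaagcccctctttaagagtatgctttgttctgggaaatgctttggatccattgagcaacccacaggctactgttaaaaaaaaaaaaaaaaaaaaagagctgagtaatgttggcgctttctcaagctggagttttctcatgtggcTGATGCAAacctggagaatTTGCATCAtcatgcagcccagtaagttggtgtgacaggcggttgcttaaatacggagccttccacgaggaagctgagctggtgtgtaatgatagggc
Slc1a4: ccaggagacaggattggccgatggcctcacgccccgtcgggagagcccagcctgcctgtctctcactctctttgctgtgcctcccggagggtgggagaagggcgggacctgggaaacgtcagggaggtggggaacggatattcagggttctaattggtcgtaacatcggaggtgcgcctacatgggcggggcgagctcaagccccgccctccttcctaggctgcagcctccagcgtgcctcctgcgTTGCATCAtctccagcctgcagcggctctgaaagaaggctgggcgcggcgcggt
Slc7a7: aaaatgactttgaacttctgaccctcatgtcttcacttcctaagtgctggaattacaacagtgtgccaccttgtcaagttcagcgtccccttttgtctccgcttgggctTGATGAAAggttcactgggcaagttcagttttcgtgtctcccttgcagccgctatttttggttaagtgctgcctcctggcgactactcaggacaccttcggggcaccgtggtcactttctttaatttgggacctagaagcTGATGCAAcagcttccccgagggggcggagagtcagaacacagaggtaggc
Slc7a11 and Slc7a7 hold 2 matches each in the windows shown and Slc1a4 holds 1. A second start of Slc7a7 has a window that overlaps the one shown and shares a match with it. The core of the antioxidant response element, TGACNNNGC on either strand, was found in 9 of the 57 windows, belonging to 7 of the 39 genes, and in 12.4% of all windows. Those 7 are 3 of the 8 fallen genes with a window (Slc6a9, Slc7a1 and Slc38a2) and 1 of the 4 risen ones (Slc6a13). The others are 1 of the 14 that did not pass and 2 of the 13 not tested. The share of 12.4% counts windows, and a gene can have several, so it is no background for these counts of genes. A match is a description of the letters and not a site in use.

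The group of the cationic amino acid carriers, known for the uptake of arginine, lysine and ornithine, holds 5 genes by sequence family. Slc7a1, Slc7a2 and Slc7a4 fell and 2 did not pass, where 24.4% of all tested genes fell. Cationic transport has not been established for Slc7a4. All 5 were lower in both KO libraries than in both WT libraries, as were 40.6% of all tested genes. Slc7a1, the carrier found in most cells, had 723 and 629 normalized counts in KO and 2361 and 3272 in WT (log2 fold change -2.04, SE 0.18, adjusted p = 0.00256). Slc7a2, whose transcript is induced in activated macrophages and is abundant in liver, had 216 and 278 in KO and 1094 and 1183 in WT (-2.21, SE 0.15, adjusted p = 0.0015). The call was lost when WT replicate 2 was left out (log2 fold change -2.15). Macrophage markers rose in the comparison of all 4 libraries, and their part in the Slc7a2 difference was not tested.

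Slc7a4, the relative without established transport, had 97.4 and 70.3 in KO and 2120 and 1839 in WT, with means of 83.9 ± 19.2 in KO and 1979.8 ± 199 in WT (SD, n = 2 each). It lies at chr16:17572018-17583214 on the minus strand. Its log2 fold change of -4.56 (SE 0.19, adjusted p = 0.000705) was the most negative of the 40. Of its exon length 13.3% is shared with P2rx6 on the opposite strand, at 222 and 251 in KO and 486 and 485 in WT. Slc7a3, with 26.2 and 20.1 in KO and 37.7 and 48.4 in WT, and Slc7a14, a carrier of lysosomes with 8.4 and 14.5 in KO and 15.3 and 17.7 in WT, did not pass (adjusted p = 0.0804 and adjusted p = 0.349). Summed per kb, the 5 genes of the group stood at 118 and 109 in KO and at 847 and 871 in WT, and Slc7a4 made up 19.9% and 15.6% of that sum in KO and 60.3% and 50.9% in WT.

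**Figure D4:**
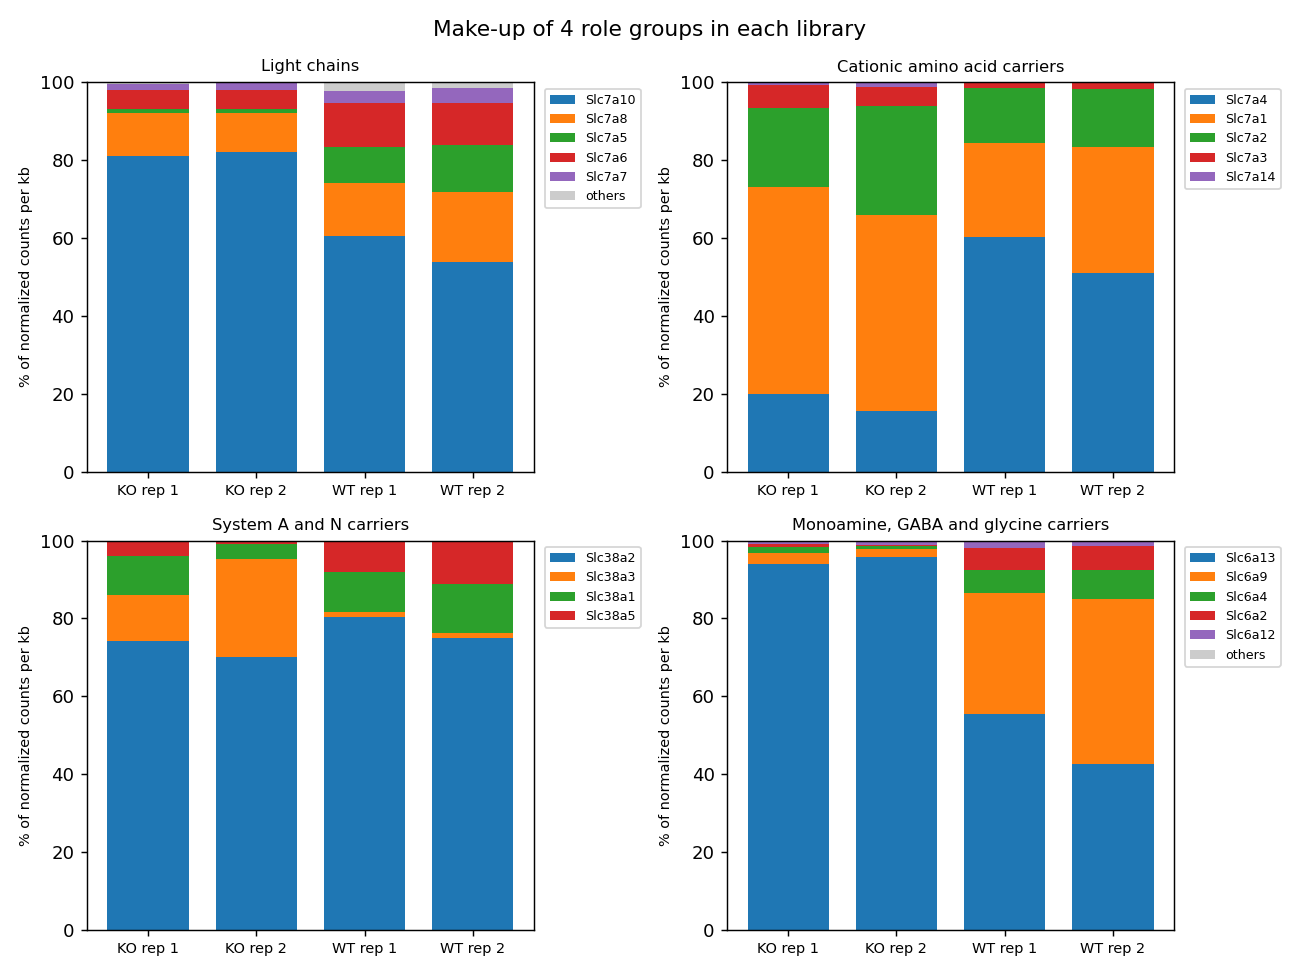
Share of each gene in the summed normalized counts per kb of exon within 4 role groups, with the KO libraries left of the WT libraries. Slc7a10 made up 81% and 82% of the light chains in KO and 60.4% and 53.9% in WT, and Slc6a13 made up 94% and 95.8% of the monoamine, GABA and glycine carriers in KO and 55.4% and 42.5% in WT.

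Of the 4 carriers of glutamine and small neutral amino acids known as system A and system N, 3 fell and 1 rose. Of all tested genes, 24.4% fell and 22.4% rose. Slc38a2, the system A carrier induced when cells lack amino acids, had 2707 and 2989 normalized counts in KO and 6053 and 6124 in WT (log2 fold change -1.10, SE 0.08, adjusted p = 0.00151). It missed the threshold without WT replicate 2 (-1.09, adjusted p = 0.0502). Slc38a1, another system A carrier, had 712 and 329 in KO and 1500 and 2030 in WT (-1.85, SE 0.41, adjusted p = 0.0244). The KO libraries differed from each other about as much, in ratio, as the higher KO library did from the lower WT library.

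The system N carriers exchange glutamine, histidine and asparagine for protons and are known from liver and brain. Slc38a3 had 258 and 635 in KO and 59.1 and 63.3 in WT, so that the KO libraries stood apart from each other as well as from WT (log2 fold change 2.71, SE 0.46, adjusted p = 0.0121). Slc38a5 had 35.6 and 8.9 in KO and 155 and 229 in WT (-3.31, SE 0.70, adjusted p = 0.0211). With WT replicate 1 left out, and then WT replicate 2, the log2 fold changes were -2.07 and -1.63 for Slc38a1, 2.66 and 2.75 for Slc38a3 and -3.59 and -3.03 for Slc38a5, and none of these 6 values passed (adjusted p from 0.131 to 0.21). The pair turned over in order, with Slc38a3 at 3.07 and 30.2 times the level of Slc38a5 per kb in KO and at 0.162 and 0.117 times in WT. Brown adipocyte markers (565 and 4296 in KO, 208 and 132 in WT) and epithelial markers (3800 and 661 in KO) also differed widely between the 2 KO libraries.

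Of the 5 other Slc38 genes tested, 1 rose and 4 did not pass, where 22.4% of all tested genes rose. Slc38a10, whose substrates include glutamine and glutamate, rose to 8501 and 9509 in KO, against 5308 and 5410 in WT (log2 fold change 0.75, SE 0.08, adjusted p = 0.00411). This call too needed both WT libraries, with 0.73 (adjusted p = 0.0621) when replicate 1 was left out and 0.76 (adjusted p = 0.072) when replicate 2 was. Slc38a9, the lysosomal arginine sensor of mTORC1, had 763 and 703 in KO and 705 and 627 in WT, and Slc38a7, a lysosomal glutamine exporter, had 937 and 916 in KO and 873 and 848 in WT. Neither passed (adjusted p = 0.313 and adjusted p = 0.268), nor did Slc38a6 with 1055 and 1216 in KO and 948 and 700 in WT (adjusted p = 0.0897). Slc38a11 had 23.4 and 44.6 in KO and 44.8 and 32.6 in WT, with overlapping groups (log2 fold change -0.23, and 0.22 without KO replicate 1).

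Creatine and taurine, which Slc6 carriers bring into cells, are used in energy buffering, in osmotic balance and in bile salts. Slc6a8, the creatine carrier, had 857 and 917 normalized counts in KO and 2128 and 2131 in WT (log2 fold change -1.26, SE 0.07, adjusted p = 0.000998), with replicates of each group close together. Slc6a6, the taurine carrier, had 4122 and 5456 in KO and 3871 and 4055 in WT (0.26, SE 0.15, adjusted p = 0.221). It passed without KO replicate 1 (0.46, adjusted p = 0.0316). Per kb, Slc6a6 stood at 2.96 and 3.66 times Slc6a8 in KO and at 1.12 and 1.17 times in WT.

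Of the 5 carriers tested in the group of monoamines, GABA and glycine, Slc6a13 rose, 3 fell and 1 did not pass. The shares over all tested genes were 22.4% higher and 24.4% lower. Slc6a13, a GABA and taurine carrier of liver, kidney and the membranes around the brain, had 5137 and 7774 normalized counts in KO and 1126 and 745 in WT. Its means were 6456 ± 1864 in KO and 936 ± 269 in WT (SD, n = 2 each), at chr6:121300227-121337733 on the plus strand. Both KO libraries were several times above both WT libraries (log2 fold change 2.79, SE 0.29, adjusted p = 0.00353), and per kb it ranked in place 3 among the 55 genes in both KO libraries and in places 10 and 13 in the WT libraries. With WT replicate 2 left out it lost the call (2.49, adjusted p = 0.0701). Its neighbour Slc6a12, a carrier of betaine and GABA that starts 5.3 kb downstream of its end on chromosome 6, had 55.3 and 85.9 in KO and 42.8 and 23.3 in WT (1.10, SE 0.42, adjusted p = 0.0962).

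Slc6a9, the glycine carrier of glia and red cell precursors, fell to 276 and 298 in KO, against 1119 and 1323 in WT (-2.08, SE 0.12, adjusted p = 0.00105). Of its exon length 27.8% is shared with Ccdc24 on the opposite strand, at 6.6 and 4.5 in KO and 13.2 and 20.5 in WT. Slc6a2, the noradrenaline carrier of sympathetic nerve endings, had 79.6 and 59.1 in KO and 249 and 234 in WT (-1.80, SE 0.21, adjusted p = 0.00451). Slc6a4, the serotonin carrier, had 130.2 and 92.6 in KO and 184 and 200.04 in WT (-0.80, SE 0.22, adjusted p = 0.0434).

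Without WT replicate 1 the values were -1.76 (adjusted p = 0.0768) for Slc6a2 and -0.86 (adjusted p = 0.199) for Slc6a4, and without WT replicate 2 they were -1.84 (adjusted p = 0.0845) and -0.74 (adjusted p = 0.249). Slc6a4 also missed the threshold without KO replicate 2 (-0.56, adjusted p = 0.0962), with edgeR (adjusted p = 0.0505) and with DESeq2 on the recovered reads (adjusted p = 0.05004). Beside Slc6a2, the noradrenergic marker Th was at 0 in both KO libraries and had 12.2 and 9.3 normalized counts in WT. Dbh, another such marker, had 0 reads in KO and 1 in WT, which shows no difference at this depth. The Schwann cell marker Sox10 (15 and 6.7 in KO, 130.4 and 179.6 in WT) fell, whereas Pmp22 and Mbp rose. Th, Dbh and Sox10 were picked out after their values were seen, and their part in the Slc6a2 difference was not tested. The sum of all 9 nerve and Schwann cell markers was 9526 and 9106 in KO and 8319 and 6898 in WT.

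Amino acid carriers of the Slc6 family fell in 3 of 4 tested, where 24.4% of all tested genes fell. All 4 were lower in both KO libraries than in both WT libraries, as were 40.6% of all tested genes. The summed male tract and smooth muscle markers were lower too, and their part was not tested. Slc6a17, which loads neutral amino acids into synaptic vesicles, had 33.7 and 29 normalized counts in KO and 739 and 595 in WT (log2 fold change -4.36, SE 0.19, adjusted p = 0.000709). Slc6a7, the proline carrier of the brain, had 33.7 and 17.9 in KO and 113 and 107 in WT (-2.12, SE 0.37, adjusted p = 0.0126). The call was lost when WT replicate 1 (-2.08, adjusted p = 0.119) or WT replicate 2 (-2.16, adjusted p = 0.127) was left out.

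Slc6a18, a neutral amino acid carrier of the kidney, had 1.9 and 0 in KO and 91.7 and 12.1 in WT. With 2 KO reads against 103 WT reads, WT exceeded KO 49.2-fold (exact 95% interval 13.3 to 411, for counting error only), and the WT libraries differed widely from each other. Its adjusted p was 0.0394, and it did not pass with a pseudocount of 5 or in the fits without 1 library (adjusted p from 0.0625 to 0.136, log2 fold change from -5.77 to -2.79). Slc6a15, a carrier of branched-chain amino acids and proline in the brain, had 15.9 and 3.3 in KO and 25.5 and 16.7 in WT (-1.34, SE 0.77, adjusted p = 0.219). Without KO replicate 1 it passed (-2.32, adjusted p = 0.049).

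The 15 genes that did not pass the filter had at most 20.4 normalized counts in any library. Slc7a15 had 0 reads in KO and 28 in WT and was at least 8.91-fold lower in KO, taking 3 reads as the upper limit for the KO group. Slc7a12 and Slc6a16 had 0 KO reads and 19 WT reads each (at least 6.05-fold lower), and Slc7a9, the cystine carrier that pairs with Slc3a1 in the kidney, had 0 and 9 (at least 2.86-fold lower). Slc6a20a, a proline carrier, had 3 KO and 25 WT reads, so WT exceeded KO 7.96-fold (exact 95% interval 2.43 to 41.2). Its near copy Slc6a20b had 0 and 1 reads, and reads may be shared between the 2 genes. The glial glutamate carrier Slc1a2 had 4.7 and 2.2 normalized counts in KO and 13.2 and 18.6 in WT. Slc6a19, the main neutral amino acid carrier of gut and kidney, Slc6a14 and Slc1a6 overlapped between the groups. Of the rest, Slc6a11 for GABA, Slc6a3 for dopamine, Slc6a5 for glycine and Slc38a8, had 3 or fewer reads in either group.

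Some of the genes lie within 500 kb of each other. Slc38a1 and Slc38a2, 44.5 kb apart on chromosome 15 with no protein-coding gene between them in GENCODE M21 (GRCm38), both fell (-1.85 and -1.10). Slc7a10, which rose, and Slc7a9, which had 0 reads in both KO libraries, are 247.7 kb apart on chromosome 7 with 4 protein-coding genes between them. Slc7a8 (0.89) and Slc7a7 (0.35, which did not pass) are 304.4 kb apart on chromosome 14 with 16 between them. Slc6a18, which fell, and Slc6a19, with 2.8 and 8.9 normalized counts in KO and 20.4 and 3.7 in WT, are 1.7 kb apart on chromosome 13.

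Genes that act on the same substrates were counted beside the carriers, with the share of all tested genes called (22.4% higher, 24.4% lower) as the background. In the breakdown of branched-chain amino acids 15 of 22 rose and 1 fell, with a median log2 fold change of 0.65 against -0.01 for all tested genes. Bckdhb and Dbt, subunits of the branched-chain ketoacid dehydrogenase, rose with log2 fold changes of 1.38 (SE 0.10, adjusted p = 0.00162) for Bckdhb and 0.78 (SE 0.07, adjusted p = 0.00253) for Dbt. Hibch, of valine breakdown, rose by 1.20 on the same scale (SE 0.10, adjusted p = 0.00205). The gene that fell, Bcat1, the cytosolic aminotransferase, had 236 and 301 in KO and 612 and 558 in WT (-1.13, SE 0.16, adjusted p = 0.00707), and it was named after its value was seen. The counts upward were 8 without KO replicate 2 and 3 without WT replicate 2, and 0 fell without either WT library. The adipocyte marker median was 1.75 in the same libraries.

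Of the enzymes of glutamine, glutamate, aspartate and serine, 8 rose and 5 fell of 18 (median 0.24). The mitochondrial aspartate aminotransferase Got2 had 1184 and 1127 in KO and 5251 and 5384 in WT (-2.20, SE 0.06, adjusted p = 0.000551), and the mitochondrial serine hydroxymethyltransferase Shmt2 had 749 and 772 in KO and 3820 and 4838 in WT (-2.50, SE 0.13, adjusted p = 0.000927). Psph, the last enzyme of serine synthesis, fell by 0.97 (SE 0.07, adjusted p = 0.00176). The enzymes before it in that pathway, named after their values were seen, rose, with log2 fold changes of 1.8 for Phgdh (SE 0.14, adjusted p = 0.00193) and 0.42 for Psat1 (SE 0.09, adjusted p = 0.023). The upward count was 5 without KO replicate 1, 5 without KO replicate 2, 3 with WT replicate 1 left out and 1 with WT replicate 2 left out.

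Of the genes of amino acid sensing and the ATF4 response, 13 rose and 3 fell of 25 (median 0.46). Trib3, a pseudokinase induced by ATF4, had 764 and 669 in KO and 183 and 210 in WT (1.86, SE 0.13, adjusted p = 0.0016), and Atf5, another transcription factor of that response, rose by 0.59 (SE 0.07, adjusted p = 0.00484). Rragb, a GTPase that recruits mTORC1 to the lysosome, had 26.2 and 16.7 in KO and 226 and 226 in WT (-3.37, SE 0.28, adjusted p = 0.00223). Atf4 itself, named after its value was seen, had 4308 and 4489 in KO and 5489 and 5453 in WT (-0.31, SE 0.06, adjusted p = 0.0176). In the same libraries the ATF4 target Slc7a11 fell by 3.82, and the part of Atf4 in that difference was not tested. The counts higher and lower were 8 and 2 without KO replicate 2, 5 and 0 with WT replicate 1 left out, and 2 and 0 with WT replicate 2 left out, and the lower count was 2 without KO replicate 1.

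In the metabolism of creatine, taurine and glutathione 5 rose and 6 fell of 17 (median -0.03). Ckb, the brain creatine kinase, had 1429 and 1446 in KO and 12415 and 16883 in WT (-3.33, SE 0.16, adjusted p = 0.000835), beside the fall of the creatine carrier Slc6a8. Gclc and Gclm, the subunits of the enzyme that commits cysteine to glutathione, fell, beside the fall of Slc7a11. Their log2 fold changes were -0.78 (SE 0.07, adjusted p = 0.00259) for Gclc and -0.98 (SE 0.12, adjusted p = 0.00459) for Gclm. Links of Ckb to Slc6a8 and of these subunits to Slc7a11 were not tested. Gss, of glutathione, and Gamt, of creatine, were named after their values were seen. Both rose, by 0.69 (SE 0.09, adjusted p = 0.00646) for Gss and 0.66 (SE 0.15, adjusted p = 0.0238) for Gamt. The upward count was 1 without KO replicate 2, 1 with WT replicate 1 left out and 0 with WT replicate 2 left out, and the downward count was 4 without either WT library.

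Other amino acid and vesicular transmitter carriers were divided, with 7 higher and 6 lower of 20 (median 0.03). The vesicular monoamine carrier Slc18a1 had 17.8 and 20.1 in KO and 221 and 247 in WT (-3.56, SE 0.21, adjusted p = 0.00111). The mitochondrial aspartate and glutamate exchangers Slc25a12 and Slc25a13 fell, with -1.27 (SE 0.09, adjusted p = 0.00158) for Slc25a12 and -3.53 (SE 0.26, adjusted p = 0.00175) for Slc25a13. Of the partners of these carriers 2 rose and 2 fell of 7 (median -0.06). The ubiquitin ligase Nedd4l fell by 0.86 on the log2 scale (SE 0.11, adjusted p = 0.00567), and Cd44, which binds Slc7a11, rose by 0.96 (SE 0.17, adjusted p = 0.0129). Among the carriers of the first list the counts were 3 and 5 without KO replicate 2, 3 and 4 with WT replicate 1 left out, and 1 and 2 with WT replicate 2 left out. Among the partners, 0 rose without KO replicate 1, 1 without KO replicate 2, 1 with WT replicate 1 left out and 0 with WT replicate 2 left out, where 1 fell.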

How the data were processed

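Polyadenylated RNA of the fat pad was sequenced in 4 libraries. Per the submitters' processing notes the build was GRCm38 and the named tools, with no roles stated, were DESeq2 1.4.5, HTSeq 0.5.3, TopHat2 2.0.10 and CASAVA 1.8. The values the authors deposited are a size-factor-scaled signal for every gene, called normalized counts. They also deposited a table with log2 fold changes, p-values, adjusted p-values and, as a score, the test statistic. The library columns of both files are equal (largest difference 0). Whole reads were recovered for 100% of values within a tolerance of 0.01 of a read. Replicates differed beyond sampling noise (chi-square per degree of freedom 36.8 in KO, 52.3 in WT). A count of 0 allows up to 3 reads, and intervals and floors cover counting error only, since reads with no molecular identifiers may be copies of one molecule.

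The test was limma 3.58.1 (R 4.3.3) on genes whose mean reached 10, after adding 1 and taking log2, with a trend of the variance on level and Benjamini-Hochberg adjustment at 0.05. The steps were tested on simulated data. Members, lists and the naming rule were chosen with earlier results of these data known. The rule gives values in every library for the 12 most abundant genes, up to 10 rises and 10 falls by size and both heavy chains, the others being described by role, up to 3 genes per pathway list by smallest p and Nck2. Exon lengths and neighbours came from GENCODE M21. Levels are compared between genes per kb of exon. The settings varied were the pseudocount (0.5, 5), the filter (none, or a mean of at least 50), the scaling (TMM, upper quartile), the tool on recovered reads (DESeq2 1.42.0, edgeR 4.0.16), the replicate number as a block, and each library left out. Where that leaves 1 library in a group, its spread is taken from the other group. Some genes of the lists are not reported here by name.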

Additional observations from a re-analysis of the deposited data

How the results depend on the processing

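The numbers of carriers called higher and lower were 7 and 16, and over all alternatives that kept the 4 libraries they ran from 6 to 8 and from 14 to 21. The count of 21 came with no filter, where more genes were tested, and edgeR on the recovered reads gave 7 and 15. Leaving out 1 library gave 1 to 6 higher and 6 to 16 lower. Over all genes those fits gave 524 to 2846 higher and 1061 to 3434 lower, against 3735 and 4074, and over the pathway lists together 7 to 37 higher and 11 to 23 lower, against 50 and 23. These fits have fewer samples and degrees of freedom. Of 297 values for the 23 called carriers 0 changed sign and 41 lost the call. Of the 17 that were not called, 4 values changed sign, all with 1 library left out. Over those fits Slc1a4 ranged from -0.48 to 0.13, Slc3a1 from -0.23 to 1.12 and Slc38a11 from -0.68 to 0.22, each changing sign without KO replicate 1, and Slc7a6os ranged from -0.017 to 0.19, changing sign without WT replicate 2. The cause was not tested.

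The replicate numbers share only a number in the labels, and same-numbered libraries did not deviate together (correlation of deviations -0.009). With the replicate number as a block 7 carriers were higher and 14 lower, 2737 and 3339 of all genes, and 38 and 22 of the pathway genes. In that fit Slc1a5 (adjusted p = 0.0511), Slc1a1 (adjusted p = 0.0515) and Slc6a4 (adjusted p = 0.08) did not pass and Slc1a3 did (adjusted p = 0.0488), and 3 rather than 5 genes of creatine, taurine and glutathione metabolism and 1 rather than 2 of the partners were called higher. Groups of 2 libraries and low counts (under 50 for Slc7a13, Slc3a1 and Slc6a15) limit the precision.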
